A study of Mus musculus with 24 samples.

Results

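Constructs of ceramic granules that carried mesenchymal stromal cells (MSC) were compared with constructs of the ceramic alone at week 2 after implantation. The aim was to see which genes differed between the groups in the whole construct. The comparison took the 8 samples whose titles place them in the BCP+MSC or the BCP group, 4 against 4, out of 24 samples in 6 groups. It was made over the 30564 genes with at least 10 counts in total, of 51138 in the table. Both groups were implanted in Foxp3-DTR/eGFP mice, a strain in which the Foxp3 gene also drives a diphtheria toxin receptor and green fluorescent protein, and neither group was given diphtheria toxin. The mice were of both sexes and 8 to 9 weeks old. Biphasic calcium phosphate (BCP), a bone substitute made of hydroxyapatite and tricalcium phosphate, was used as granules, 40 mg to a construct, and the constructs were implanted subcutaneously on the back. Each mouse carried 2 constructs of the same group. The BCP+MSC constructs carried 800000 MSC grown from mouse bone marrow and used at passage 2, and the BCP constructs carried no cells. The methods of the study give the marrow donors as wild-type C57BL/6J mice, while a figure legend names wild-type C57BL/6J or Foxp3-eGFP mice. The sex of the MSC donors is not given in the sources used here, and no label marks the implanted cells, so their RNA cannot be told apart from that of the host cells that grew in.

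MSC are adherent stromal cells that can become osteoblasts, chondrocytes or adipocytes, and they also act on immune cells through the factors they release. An osteoblast first uses the transcription factors Runx2 and Sp7 and then lays down collagen type I and the mineral-binding proteins of bone, among them bone sialoprotein (Ibsp), osteopontin (Spp1) and osteocalcin (Bglap). A ceramic placed under the skin meets macrophages, giant cells and fibroblasts of the host, which grow into the pores between the granules. In RNA of whole constructs, fewer cells of a type and less RNA per cell cannot be told apart.

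The BCP libraries held 14111255 to 134691903 counts and the BCP+MSC libraries 38646463 to 70092441. Expression is given as CPM (counts relative to the size of the library, with TMM factors over all 24 libraries), and per-sample values are listed in the order of replicates 1 to 4, each replicate being 1 mouse. A count of 3, taken as the smallest level that can be shown, was worth 0.0223 to 0.213 CPM in the BCP libraries and 0.0428 to 0.0776 CPM in the BCP+MSC libraries, which covers counting error only. Several libraries stood apart. Xist, which is expressed from the inactive X chromosome of females, was above the sum of 4 Y-linked genes in 1 BCP construct (replicate 1) and 3 BCP+MSC constructs (replicates 1 to 3). In those 3 BCP+MSC constructs the Y-linked genes summed to 0.136, 0.473 and 0.265 CPM, against 0.175 CPM in BCP replicate 1. The 35 skeletal muscle genes had a mean log2 CPM of 6.16, 8.33, 7.91 and 5.64 in BCP and 8.70, 2.94, 8.10 and 8.60 in BCP+MSC, where replicate 2 was the lowest. BCP replicates 3 and 4 had the highest levels of the immediate early genes, as described with those genes.

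A gene was called higher or lower when the unadjusted p-value of edgeR's quasi-likelihood test, fitted to all 24 samples, was under 0.05 and the log2 fold change (BCP+MSC minus BCP) was beyond 1. By this rule 762 genes (2.49% of those tested) were higher and 558 (1.83%) lower in BCP+MSC, 4.32% in all. After Benjamini-Hochberg adjustment over all genes, 0 passed an adjusted p-value of 0.05, and the smallest adjusted p-value was 0.718, shared by Per2, Ibsp and Cry1. In edgeR's test 1546 genes (5.06%) had an unadjusted p-value under 0.05 at any fold. That is about the share such a threshold gives when no gene differs. In 1 data set simulated for these libraries, the unadjusted rule called 3.94% of 29452 unchanged genes in edgeR. DESeq2 passed 6 genes by its adjusted p-value on all samples and 17 on the 8 samples alone. Those 6 were Ibsp, Cry1, Per2, Ighv1-81, Igkv6-20 and Igkv4-54, the last with counts in BCP replicate 3 alone among the 8 constructs. In the simulated data DESeq2 passed 30 unchanged genes at an adjusted p-value under 0.05, against 6 in edgeR, so its adjusted calls include more false ones. The median log2 fold change over all genes was 0.06. Of the 762 higher genes 311 had no counts in BCP, and of the 558 lower genes 243 had none in BCP+MSC. Among the 14976 genes with a group mean of at least 1 CPM, 110 were higher and 144 lower, so that the higher genes outnumbered the lower ones among scarce transcripts but not among the others. All 4 BCP+MSC values lay above all 4 BCP values in 381 genes (1.25%) and below them in 173 (0.566%). With labels placed at random, each pattern would arise in 1 of 70 arrangements, a larger share than either. A lack of overlap, with its exact permutation p of 0.0286, therefore does not set a gene apart by itself. For genes chosen because their groups did not overlap, that p-value was largely set by the choice. BCP replicates 1 and 4 held 14648410 and 14111255 counts, fewer than any BCP+MSC library, so a scarce gene could more easily read 0 there. The part of depth in these counts of genes was not tested. In what follows, "rose" and "fell" refer to the unadjusted rule. None of these calls passed the adjusted threshold in edgeR. The sex of the animals moved with the groups, so the fit was repeated with a term for it. With that term 324 of the 762 higher genes and 336 of the 558 lower genes kept their call. Of the 48 called genes named in the text, many of them chosen for small p-values, 35 kept the call. The other 13 lost it and kept their direction: Col10a1, Ucma, Has2, Thbs1, Btg2, Dnajb1, Hspa1a, Il6, Ptgs2, Tnnc1, Ighg3, Ighg2b and Igkv4-54. Of 63 uncalled genes named, 5 gained a call with it, namely Spp1, Nes, Arg1, Igfbp2 and Il13.

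Among the bone genes, bone sialoprotein had the highest fold change and no overlap between the groups. Ibsp, whose product nucleates mineral in bone matrix (ENSMUSG00000029306.8, chromosome 5 from 104299171 to 104311469), had 0, 0, 3 and 0 counts in the BCP constructs and 20, 20, 30 and 1040 in the BCP+MSC constructs. This was 0, 0, 0.0241 and 0 CPM against 0.546, 0.305, 0.497 and 15.4 CPM. Every BCP+MSC construct was above every BCP construct, and replicate 4 held most of the BCP+MSC signal. In the shallow BCP replicates 1 and 4 a count of 3 is worth 0.205 and 0.213 CPM, so that levels such as that of BCP+MSC replicate 2 are only just above what those libraries could show. The fitted log2 fold change was 8.19 (SE 1.64, unadjusted p = 5.5e-05, adjusted p = 0.718, edgeR), and the exact permutation test gave p = 0.0286, the smallest that 70 arrangements allow. From the 3 counts of BCP the pooled ratio was 342-fold with a 95% counting interval of 117 to 1659. Without BCP+MSC replicate 4 the log2 fold change of Ibsp was 4.98.

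The 24 tested genes of the osteoblast and mineral matrix list had a median log2 fold change of 0.14, against 0.06 over all genes. Of these 24, 4 rose (Ibsp, Bglap, Bglap2 and Mepe) and 1 fell (Phex). All 4 risen genes had most of their counts in BCP+MSC replicate 4. Bglap, which encodes osteocalcin, had 0, 0, 1 and 0 counts in BCP and 0, 3, 1 and 32 in BCP+MSC. The log2 fold change of Bglap was 4.47 (SE 1.57, unadjusted p = 0.00878), and it was 1.99, no longer called, without BCP+MSC replicate 4. Bglap2, a near-identical copy whose reads cannot be fully told apart from those of Bglap, had 0, 0, 0 and 57 counts in BCP+MSC and 0, 0, 0 and 1 in BCP, and its log2 fold change turned from 4.51 to -2.26 without that animal. Mepe, a matrix protein of osteocytes, had 1, 0, 0 and 9 counts in BCP+MSC and 0 in every BCP construct, which makes it at least 3.08-fold higher against a floor of 3 counts over the group (unadjusted p = 0.0320).

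**Figure D1:**
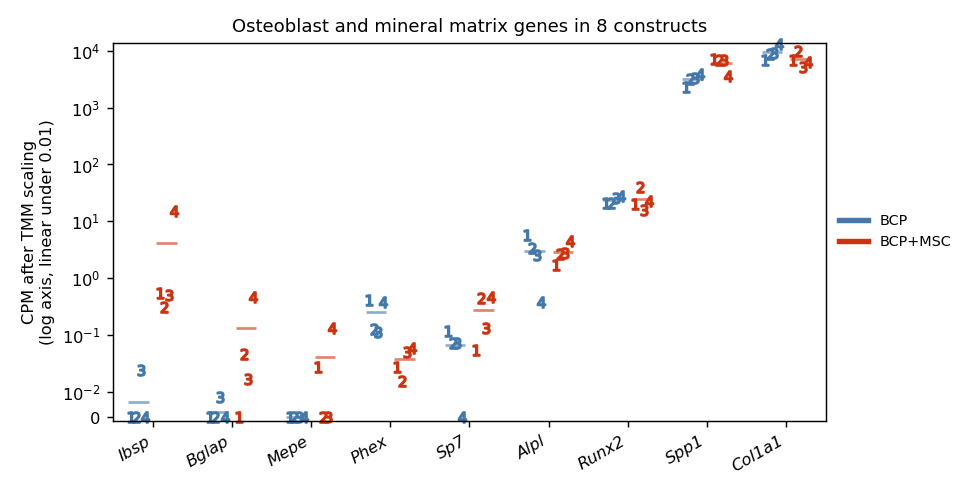
CPM (vertical log axis, linear under 0.01) of 9 osteoblast and mineral matrix genes in each construct. Digits are the replicate numbers, blue for BCP and red for BCP+MSC, and bars are group means. Ibsp separates the groups, BCP+MSC replicate 4 is highest for Ibsp, Bglap and Mepe, and Runx2, Alpl and Col1a1 overlap.

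Phex went the other way. Phex, an endopeptidase of osteoblasts and osteocytes that keeps phosphate balance, was at 0.408, 0.128, 0.112 and 0.378 CPM in BCP and 0.0273, 0.0153, 0.0497 and 0.0594 CPM in BCP+MSC. All BCP values were above all BCP+MSC values. These levels rest on 7, 7, 14 and 6 counts in BCP and 1, 1, 3 and 4 in BCP+MSC. For Phex the log2 fold change was -2.57 (SE 0.99, unadjusted p = 0.0162, exact permutation p = 0.0286). Predicted genes overlap Phex, so its counts are uncertain.

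The early and the abundant genes of the osteoblast program did not pass the rule. Sp7, also called osterix, which commits cells to the osteoblast lineage, was at 0.117, 0.0731, 0.0723 and 0 CPM in BCP and 0.0546, 0.443, 0.132 and 0.460 CPM in BCP+MSC. BCP+MSC replicates 2 and 4 were above all BCP values while replicate 1 was below 3 of them, with a log2 fold change of 1.98 (SE 1.03, unadjusted p = 0.0649, edgeR). Spp1, one of the most abundant transcripts of the constructs, was at 2276, 3152, 3265 and 3892 CPM in BCP and 7167, 7022, 6958 and 3586 CPM in BCP+MSC. In 3 of 4 BCP+MSC constructs it was far above every BCP construct, and replicate 4, the one with the most Ibsp, lay below BCP replicate 4. The log2 fold change of Spp1 was 0.97 (SE 0.48, unadjusted p = 0.0522), and it was 1.16, past the rule, without that replicate. With the sex term it was 1.59 and also past the rule. Runx2, the upstream factor, had a log2 fold change of 0.06 (SE 0.26) at 20.7 to 28.0 CPM in BCP and 15.9 to 39.7 CPM in BCP+MSC. Alkaline phosphatase (Alpl) had -0.06 (SE 0.64) and Col1a1, the main chain of bone and skin collagen, -0.41 (SE 0.44), and both overlapped between the groups. Dmp1, a phosphoprotein of mineralizing matrix, was at 0.658 to 1.45 CPM in BCP and 0.464 to 1.36 CPM in BCP+MSC.

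Cartilage genes moved in single animals. Of 20 genes, with a median log2 fold change of 0.27, 2 rose (Col10a1 and Ucma) and 1 fell (Has2). Col10a1, the collagen of hypertrophic chondrocytes, was at 1.94, 0.107, 0.0331 and 0.0446 CPM in BCP+MSC and 0.175, 0.0183, 0.128 and 0 CPM in BCP. Ucma, a protein of cartilage matrix, had 21 counts in BCP+MSC replicate 1 and 0 in the other 7 constructs. Both calls rested on that replicate, and without it the log2 fold change of Col10a1 was -0.39 and that of Ucma 0. The same construct had the highest Acan and Col2a1 of the 8, the core proteoglycan and collagen of cartilage, at 1.64 and 1.88 CPM. Sox9, the transcription factor of chondrocytes, was at 12.9, 11.3, 17.7 and 13.0 CPM in BCP and 16.9, 17.8, 30.4 and 10.2 CPM in BCP+MSC and did not pass (log2 fold change 0.45, SE 0.42).

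Has2, a synthase of hyaluronan, was at 15.4, 12.1, 21.5 and 69.4 CPM in BCP and 6.33, 18.8, 7.03 and 9.98 CPM in BCP+MSC. BCP replicate 4 was far above the rest and the other constructs overlapped. Has2 had a log2 fold change of -1.48 (SE 0.60, unadjusted p = 0.0222), which was -0.63 and not called without BCP replicate 4. Has2os overlaps the gene on the opposite strand. Matn3, a matrilin of cartilage, was at 0.641, 0.365, 0.546 and 0.126 CPM in BCP against 0.273, 0.229, 0.0993 and 0.371 CPM in BCP+MSC, a log2 fold change of -0.80 (SE 0.78) that did not pass.

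Markers of the implanted cell type gave no calls. The 16 stromal progenitor genes, the surface markers and niche factors by which MSC are known, had a median log2 fold change of 0.07, and 0 of them were called. Eng, Cd44, Itgb1 and Ly6a, which are among the antigens used to define mouse MSC, were present in every construct of both groups. Eng, for example, was at 84.3 to 107 CPM in BCP and 83.3 to 113 CPM in BCP+MSC, and its log2 fold change was 0.09 (SE 0.22). Vcam1, an adhesion molecule of stromal and endothelial cells, was at 50.6, 52.4, 64.7 and 67.2 CPM in BCP and 31.1, 44.4, 33.0 and 47.3 CPM in BCP+MSC. Those values did not overlap, but the log2 fold change of -0.59 was under the limit of the rule (SE 0.24, unadjusted p = 0.0187, exact permutation p = 0.0286). Nes, an intermediate filament protein of progenitor cells, had a log2 fold change of 0.81 (SE 0.35, unadjusted p = 0.0280) at 82.9, 123, 152 and 88.0 CPM in BCP and 264, 130.1, 247 and 141 CPM in BCP+MSC, with overlap.

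Genes of connective tissue gave 1 call. Col3a1, Psap, Col1a1, Col1a2 and Ctsb were the 5 most abundant nuclear protein-coding genes of each group. They encode 3 collagen chains of connective tissue and 2 lysosomal proteins that macrophages hold in quantity. Col3a1 was at 12004 to 18647 CPM in BCP and 4744 to 15438 CPM in BCP+MSC (log2 fold change -0.57, SE 0.53). The 23 fibrous matrix genes had a median log2 fold change of -0.11 with 0 called, and the range of all 23 was -0.57 to 0.29. Of 18 myofibroblast and TGF-beta genes 1 fell, Thbs1, which encodes a matricellular activator of TGF-beta, and their median was -0.11. Thbs1 was at 165, 132, 362 and 1189 CPM in BCP and 107, 344, 195 and 119 CPM in BCP+MSC. The fall was seen only with BCP replicate 4 (log2 fold change -1.27 with all animals, -0.20 without it). The 25 BMP and Wnt signalling genes had a median of -0.16 and 0 called.

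**Figure D2:**
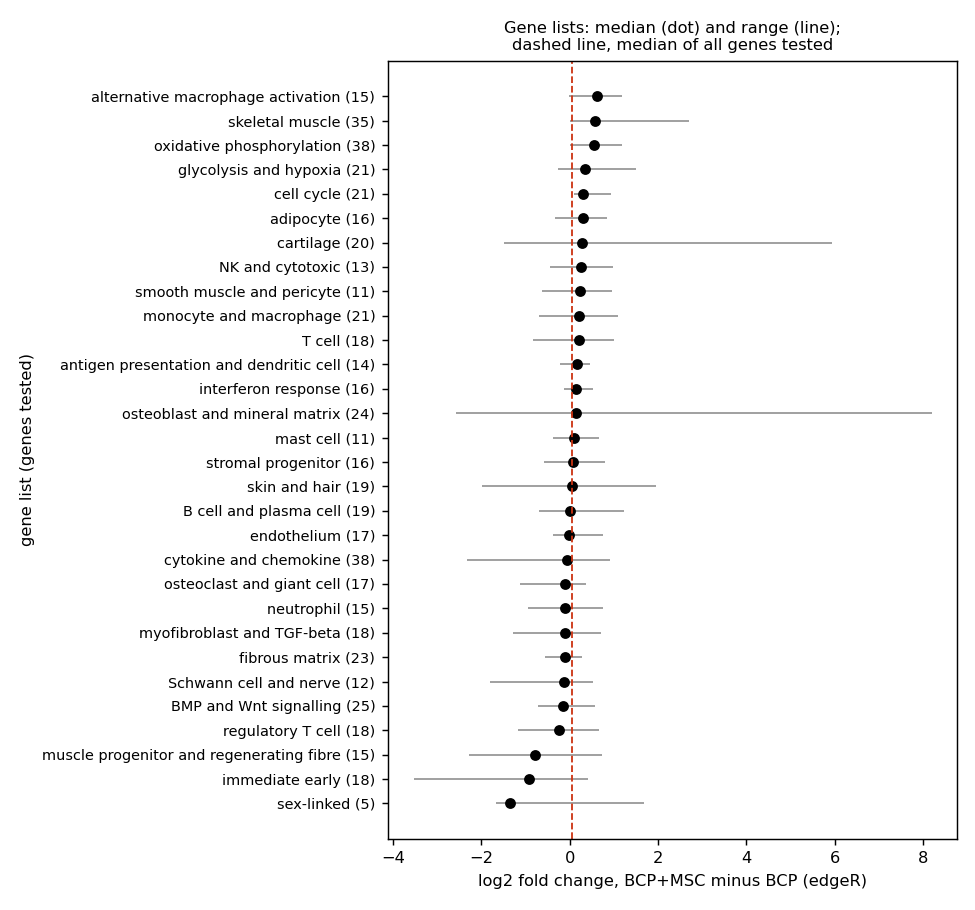
Median (dot) and range (line) of the log2 fold change, BCP+MSC minus BCP, of the genes tested in each of 30 lists, with the number of genes in brackets. The dashed line is the median of all genes tested, 0.06. The immediate early list lies at -0.93, the alternative macrophage activation list at 0.62, and the osteoblast list has the widest reach upwards, set by Ibsp.

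The 2 genes with the smallest p-values that fell, Per2 and Cry1, and the protein-coding gene with the second smallest among those that rose, Nr1d1, belong to the circadian clock. In this loop of transcription factors, Clock and Arntl drive the genes for the period (Per) and cryptochrome (Cry) repressors and for the nuclear receptors Nr1d1 and Nr1d2 from E-box sites. The Nr1d proteins in turn repress Arntl and Cry1 from ROR elements, so that the transcripts of the loop peak at different times of the day. The labels and the methods of the study give no hour of harvest for either group, and the part of the time of day was not tested. A list of 19 clock genes was written after these values were seen, so its counts describe and do not test.

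Per2 (ENSMUSG00000055866.9, chromosome 1 from 91415982 to 91459324) was at 15.5, 27.8, 22.4 and 31.4 CPM in the BCP constructs and 8.38, 12.7, 9.09 and 8.44 CPM in the BCP+MSC constructs. All 4 BCP+MSC values lay below all 4 BCP values. The log2 fold change was -1.33 (SE 0.26, unadjusted p = 2.58e-05, adjusted p = 0.718, edgeR). With single animals left out it ran from -1.502 to -1.181, and DESeq2 gave Per2 an adjusted p-value of 0.00708 on all samples.

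Cry1 (ENSMUSG00000020038.10, chromosome 10 from 85131700 to 85185064) was at 20.5, 22.5, 24.8 and 23.0 CPM in BCP, where the 4 animals were close together, and 7.91, 9.33, 7.12 and 15.4 CPM in BCP+MSC. The groups were again apart, with BCP+MSC replicate 4 nearest to BCP. The log2 fold change of Cry1 was -1.19 (SE 0.25, unadjusted p = 7.05e-05, adjusted p = 0.718), and the exact permutation test gave 0.0286, as it did for Per2.

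Nr1d1 (ENSMUSG00000020889.11, chromosome 11 from 98767932 to 98775333), also called Rev-erb alpha, was at 11.4, 23.6, 8.60 and 5.98 CPM in BCP and 44.2, 39.5, 40.6 and 47.1 CPM in BCP+MSC. Here the BCP+MSC constructs were the tightly grouped ones, all above BCP, whose highest animal was replicate 2. The log2 fold change was 1.78 (SE 0.44, unadjusted p = 0.000478, adjusted p = 0.888, exact permutation p = 0.0286). Thra overlaps Nr1d1 on the opposite strand, and the counts were made without regard to strand. Its paralog Nr1d2, with 16.9, 15.0, 16.7 and 13.5 CPM in BCP and 18.6, 36.7, 27.7 and 29.2 CPM in BCP+MSC, was also apart between the groups, at a log2 fold change of 0.85 that was under the limit of 1 (SE 0.27, unadjusted p = 0.00360). The calls of Per2, Cry1 and Nr1d1 held in each of the 8 fits that left out 1 animal.

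The promoters of the clock genes with separated groups are shown because the loop acts through E-boxes and ROR elements, and that of Ibsp because it had the highest fold among the bone genes. Of these 5 genes 4 matched the RefSeq promoter table of GRCm38.p6, and Per2 is named only. Each sequence runs 5′ to 3′ on the strand of the gene and ends just before the start of transcription, as RefSeq or the annotation of the counts gives it, whichever lies further upstream. Capitals mark matches to an E-box (CACGTG) or a ROR element core (AGGTCA), on either strand.
Cry1, chr10:85185065-85185304, minus strand: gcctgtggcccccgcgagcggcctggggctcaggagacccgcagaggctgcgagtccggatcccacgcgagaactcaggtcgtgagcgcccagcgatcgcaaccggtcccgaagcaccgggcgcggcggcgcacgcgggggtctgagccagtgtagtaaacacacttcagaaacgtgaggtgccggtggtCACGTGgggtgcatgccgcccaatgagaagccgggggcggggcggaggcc
Nr1d1, chr11:98775378-98775627, minus strand: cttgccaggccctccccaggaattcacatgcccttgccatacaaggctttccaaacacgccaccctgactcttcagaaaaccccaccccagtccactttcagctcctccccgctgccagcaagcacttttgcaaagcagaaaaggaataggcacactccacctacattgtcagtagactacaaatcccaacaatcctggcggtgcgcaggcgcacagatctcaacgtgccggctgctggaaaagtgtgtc
Nr1d2, chr14:18239128-18239356, minus strand: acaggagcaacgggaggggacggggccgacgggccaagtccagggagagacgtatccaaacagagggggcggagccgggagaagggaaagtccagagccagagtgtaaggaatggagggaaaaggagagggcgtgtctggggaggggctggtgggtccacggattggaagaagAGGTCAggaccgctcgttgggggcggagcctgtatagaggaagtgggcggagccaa

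The Cry1 window held 1 E-box, whose first base lay 50 bases before the end of the window, and no ROR element core. An E-box is found in 5.69% of 32851 RefSeq promoters in a window of the same length. The Nr1d2 window held 1 ROR element core, on the plus strand of the gene, with 13% of promoters holding one in such a window. Neither set of letters occurred in the Nr1d1 window. For Ibsp, a window of 134 bases before the annotated start held neither the RUNX core (TGTGGT, in 7.89% of promoters) nor a TATA box (TATAAA, in 6.66%), searched on both strands. The RefSeq start of Ibsp lies 116 bases downstream of that start. Those 116 bases were not searched, so the window does not show whether they hold either motif.
Ibsp, chr5:104299037-104299170, plus strand: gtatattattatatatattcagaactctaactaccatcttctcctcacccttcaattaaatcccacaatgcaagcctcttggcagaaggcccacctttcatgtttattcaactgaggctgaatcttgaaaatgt

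**Figure D3:**
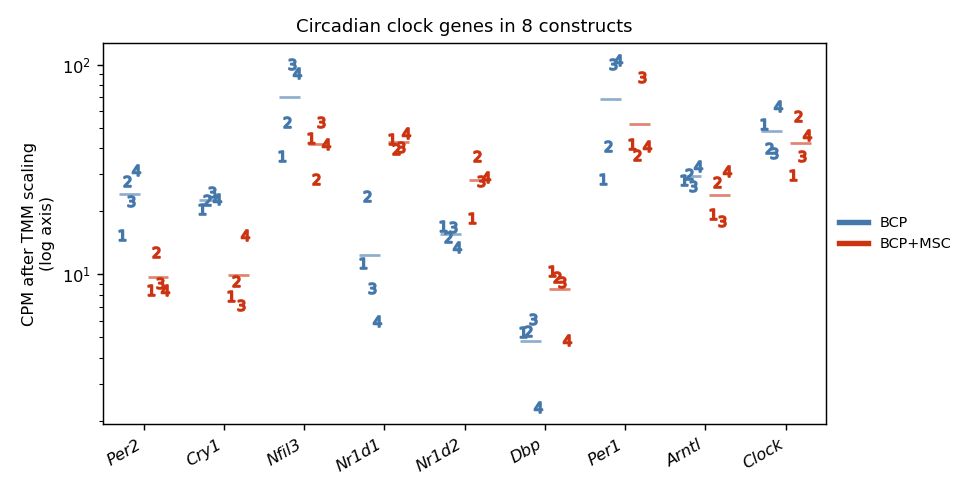
CPM (log axis) of 9 circadian clock genes in each construct, with replicate numbers in blue for BCP and red for BCP+MSC and bars for group means. Per2 and Cry1 are lower and Nr1d1 and Nr1d2 higher in all BCP+MSC constructs than in any BCP construct, and Arntl and Clock overlap.

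The rest of the clock list was mixed. Of its 19 genes, all tested, 1 rose (Nr1d1) and 2 fell (Per2 and Cry1), and the median log2 fold change was -0.07. Nfil3, a repressor of the D-box, was at 36.6, 53.1, 101 and 91.1 CPM in BCP and 44.5, 28.6, 53.0 and 41.7 CPM in BCP+MSC (log2 fold change -0.75, SE 0.30, unadjusted p = 0.0195), but this went to -0.11 without BCP replicates 3 and 4. Dbp, the D-box activator, was higher in 3 of 4 BCP+MSC constructs than in any BCP construct, at 10.4, 9.74, 9.22 and 4.84 CPM against 5.31, 5.39, 6.14 and 2.33 CPM, and did not pass (log2 fold change 0.82, SE 0.46). For Arntl the log2 fold change was -0.29 (SE 0.26), for Clock -0.19 (SE 0.21) and for Per1 -0.41 (SE 0.39). With a term for sex in the model the log2 fold changes were -1.39 for Per2, -1.09 for Cry1 and 1.47 for Nr1d1, all still called.

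Immediate early genes, which cells switch on within minutes of a stimulus, were high in BCP replicates 3 and 4. Of 18 genes 5 fell, namely Fosb, Nr4a1, Nr4a2, Nr4a3 and Btg2, none rose, and the median log2 fold change was -0.93. The mean log2 CPM of the list was 5.15, 5.59, 7.71 and 6.78 in BCP and 5.49, 5.49, 5.46 and 5.90 in BCP+MSC. BCP replicates 1 and 2 were within or near the BCP+MSC range and replicates 3 and 4 far above it.

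Fosb, a subunit of the AP-1 transcription factor, was at 6.01, 8.99, 473 and 259 CPM in BCP and 6.82, 17.2, 5.20 and 35.6 CPM in BCP+MSC. Its log2 fold change was -3.53 (SE 1.24, unadjusted p = 0.0107, exact permutation p = 0.314). Nr4a1, an orphan nuclear receptor, was likewise highest in BCP replicates 3 and 4, at 27.8, 40.5, 385 and 213 CPM in BCP against 24.7 to 69.96 CPM in BCP+MSC (log2 fold change -1.90, SE 0.61). The smallest p-values of the list belonged to Nr4a3 (unadjusted p = 0.000845) and Nr4a2 (unadjusted p = 0.00103), with log2 fold changes of -1.53 and -1.99. Without BCP replicates 3 and 4, an alternative chosen after the data were seen, Fosb was at 1.10, Nr4a1 at 0.37 and Btg2 at 0.34, all with the direction turned, while Nr4a3 was at -0.25 and Nr4a2 at -0.02. The median of the list was then 0.35. Fos and Egr1, the classic members, had log2 fold changes of -1.19 (SE 0.69) and -1.32 (SE 0.67) and did not pass.

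Heat shock genes followed the same animals in part. Of 15 genes, a list also written after the values were seen, 3 fell (Hspa1a, Hspa1b and Dnajb1) and none rose, with a median of -0.24. Hspa1a and Hspa1b, near-identical genes for the inducible Hsp70, share reads. Hspa1b was at 11.5, 12.6, 36.5 and 20.7 CPM in BCP and 7.67, 9.58, 9.32 and 3.27 CPM in BCP+MSC, with no overlap (log2 fold change -1.45, SE 0.45, unadjusted p = 0.00372). Dnajb1, its co-chaperone, was at 31.2, 44.6, 122 and 58.9 CPM in BCP against 28.9, 30.9, 33.5 and 29.6 CPM in BCP+MSC, with BCP replicate 3 the highest (log2 fold change -1.06). The log2 fold changes were -0.71 for Hspa1b and -0.32 for Dnajb1 without BCP replicates 3 and 4.

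The list of cytokines and chemokines, the messengers of inflammation, had 3 genes that fell and none that rose among 38 tested, with a median of -0.07. The 3 were the cytokine Il6, the chemokine Cxcl1 and Ptgs2, which encodes an enzyme. Il6, the pleiotropic cytokine of the acute phase, was at 0.525, 0.749, 14.4 and 12.4 CPM in BCP and 1.06, 1.07, 2.27 and 1.93 CPM in BCP+MSC. Cxcl1, which attracts neutrophils, was at 3.85, 4.68, 83.9 and 30.4 CPM in BCP and 3.77, 4.04, 6.57 and 10.3 CPM in BCP+MSC. In both genes BCP replicates 3 and 4 were high and replicates 1 and 2 were within or below the BCP+MSC range. The log2 fold change was -2.15 for Il6 (SE 0.82, unadjusted p = 0.0157, exact permutation p = 0.429) and -2.32 for Cxcl1 (SE 0.83, unadjusted p = 0.0113, exact permutation p = 0.314). Without these 2 animals the values were 1.28 and 0.52, with the direction turned. With the sex term the log2 fold change of Il6 was -1.10 and not called. Ptgs2, the inducible cyclooxygenase, was at 19.5, 7.20, 24.8 and 102 CPM in BCP and 6.36, 22.1, 11.9 and 17.3 CPM in BCP+MSC, and its log2 fold change of -1.41 (unadjusted p = 0.0466) was -0.25 without BCP replicate 4 and -0.71, not called, with the sex term.

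**Figure D4:**
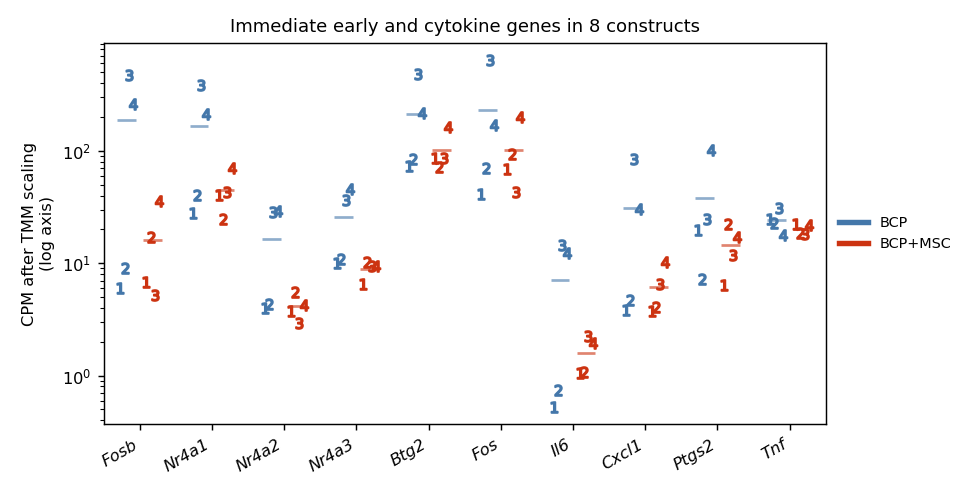
CPM (log axis) of 6 immediate early genes, Il6, Cxcl1, Ptgs2 and Tnf in each construct, with replicate numbers in blue for BCP and red for BCP+MSC and bars for group means. BCP replicates 3 and 4 stand above all other constructs for Fosb, Nr4a1, Nr4a2, Nr4a3, Il6 and Cxcl1, while BCP replicates 1 and 2 lie with the BCP+MSC constructs.

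The other inflammatory messengers did not pass. Il1a, the alarmin form of interleukin 1, had all BCP values above all BCP+MSC values, at 8.11, 6.21, 7.98 and 9.25 CPM against 2.97, 6.14, 1.97 and 6.04 CPM (log2 fold change -0.88, SE 0.47, unadjusted p = 0.0719, exact permutation p = 0.0286). Il1b was at 62.3 to 208 CPM in BCP and 61.5 to 111 CPM in BCP+MSC (log2 fold change -0.83, SE 0.85). Tnf, with 17.8 to 31.0 CPM in BCP and 18.3 to 22.5 CPM in BCP+MSC, had -0.25 (SE 0.36), and the macrophage chemokine Ccl4 0.17 (SE 0.63). Ifng, the main cytokine of activated T and NK cells, was at or near the floor in both groups, with 1, 11, 5 and 0 counts in BCP and 2, 13, 3 and 9 in BCP+MSC. Il4 had a log2 fold change of -0.03 (SE 0.45). The remaining chemokines of the list had log2 fold changes of 0.07 (Ccl2), -0.34 (Ccl3), 0.27 (Ccl5), -0.54 (Cxcl5), 0.05 (Cxcl9) and 0.40 (Cxcl10), and Il13 and Csf2 had 0.53 and -1.12, with no call.

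Macrophage genes were abundant in both groups, with 0 of 21 called and a median log2 fold change of 0.21. Lyz2, lysozyme of myeloid cells, was at 5916, 4149.9, 5513 and 4798 CPM in BCP and 3123, 3614, 2196 and 3709 CPM in BCP+MSC. The groups did not overlap, at a log2 fold change of -0.69 (SE 0.37, unadjusted p = 0.0759, exact permutation p = 0.0286). Ccr2, the receptor that draws monocytes from blood, was above every BCP value in every BCP+MSC construct, at 113, 154, 125 and 133 CPM against 112, 102, 104 and 112 CPM, a small difference (log2 fold change 0.29, SE 0.49, unadjusted p = 0.566). The 15 genes of alternative macrophage activation, a state linked to repair, had a median of 0.62, 13 of them above 0 and 0 called. Over all genes tested 54.8% were above 0. The mean log2 CPM of this list overlapped between the groups, at 6.19 to 7.61 in BCP and 6.40 to 8.22 in BCP+MSC. Arg1, arginase 1, was at 269, 1273, 1089.7 and 691 CPM in BCP and 2139.8, 1015, 2076 and 1061 CPM in BCP+MSC (log2 fold change 0.92, SE 0.57), and Cd163, a scavenger receptor of resident macrophages, at 37.0, 68.8, 109 and 72.1 CPM and 133, 23.7, 212 and 133 CPM (log2 fold change 0.80, SE 0.56). Of 17 osteoclast and giant cell genes and 15 neutrophil genes 0 were called, with medians of -0.10 and -0.11.

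Lymphocyte markers were scarce. Foxp3, which defines regulatory T cells and carries the transgene in these mice, was at 1.28, 0.914, 1.27 and 2.14 CPM in BCP and 1.04, 1.19, 0.629 and 0.876 CPM in BCP+MSC. BCP replicate 4 was highest and the groups overlapped (log2 fold change -0.57, SE 0.50, unadjusted p = 0.262). The 18 regulatory T cell genes had a median of -0.25 and the 18 T cell genes 0.21, with 0 called in each. Ccr4, a homing receptor of regulatory and Th2 cells, was at 1.28, 0.713, 0.763 and 0.881 CPM in BCP and 0.327, 0.351, 0.149 and 0.772 CPM in BCP+MSC, with BCP+MSC replicate 4 inside the BCP range (log2 fold change -1.16, SE 0.62, unadjusted p = 0.0746). Cd8a, the co-receptor of cytotoxic T cells, was apart between the groups at 3.44, 3.16, 2.25 and 2.33 CPM against 2.21, 1.11, 1.22 and 1.78 CPM, with a log2 fold change of -0.82 (SE 0.58, unadjusted p = 0.166). Cd3d, a chain of the T cell receptor complex, went from 0.944 to 3.73 CPM to 1.59 to 8.04 CPM with overlap (log2 fold change 1.01, SE 0.59).

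Immunoglobulin variable segments make up the antigen-binding ends of antibodies. Of 213 such segments, gathered as a group after the values were seen, 49 fell and 7 rose, with a median of -1.42. Over all genes 1.83% fell and 2.49% rose, with a median of 0.06. The segments are not independent of each other, so their number does not count separate observations. Of 12 constant genes, also gathered after the values were seen, 2 fell and 1 rose. Their median was -1.19, with 8 below 0. With the sex term the medians were -0.70 for the variable segments and -0.36 for the constant genes. The constant genes Ighm (0.50, SE 1.13) and Igkc (1.22, SE 1.13) and the B cell markers had no call. Each B cell clone uses 1 heavy chain and 1 light chain variable segment. Ighv1-81 was at 32.2, 9.34, 14.3 and 6.36 CPM in BCP and 0.164, 0.351, 0.0331 and 0.876 CPM in BCP+MSC, with no overlap (log2 fold change -5.41, SE 1.36, unadjusted p = 0.000756). Igkv6-20 was at 5.36, 0.512, 13.8 and 0.189 CPM in BCP, spread over nearly 2 orders of magnitude, and 0, 0, 0.0331 and 0.0743 CPM in BCP+MSC. Ighv1-42 had 0, 0, 0 and 7 counts in BCP+MSC and 12.1, 11.0, 0.594 and 0.567 CPM in BCP. Variable segments resemble each other closely, and reads with several alignments were not counted, so their counts are uncertain. Ighg2c, the constant gene of IgG2c, was lower in every BCP+MSC construct, at 4.80, 3.36, 2.90 and 1.01 CPM against 12.9, 6.40, 13.5 and 11.9 CPM (log2 fold change -1.89, SE 0.72, unadjusted p = 0.0160). In BCP+MSC replicate 3 another IgG gene, Ighg3, reached 832 CPM, and Ighg3 rose (log2 fold change 5.86, unadjusted p = 0.0361) while Ighg2b fell (log2 fold change -2.24, unadjusted p = 0.0314). Each of these 2 genes kept its call in 4 of the 8 fits that left out 1 animal. Ighg3 was at 1.59 without BCP+MSC replicate 3 and at 2.04 with the sex term, and Ighg2b at -1.28 without BCP replicate 3, all not called. These 3 IgG genes were named after their values were seen. The list of 19 B cell and plasma cell genes had a median of 0.01.

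The levels of muscle and adipocyte genes differed widely between constructs of the same group. All 35 skeletal muscle genes had a log2 fold change above 0, with a median of 0.57, against 54.8% of all genes tested. These genes are not independent, and the mean log2 CPM of the list was 7.01 in BCP and 7.08 in BCP+MSC. Of the 35, 1 was called, Tnnc1, the troponin C of slow fibres. Tnnc1 was at 2.80, 8.19, 9.79 and 1.26 CPM in BCP and 63.3, 1.51, 74.2 and 8.08 CPM in BCP+MSC (log2 fold change 2.71, SE 1.28, unadjusted p = 0.0476), a call that held in 3 of 8 fits that left out 1 animal. Acta1, the actin of skeletal muscle, was at 1289, 5398, 3348 and 1191 CPM in BCP and 5545, 91.5, 3459 and 6217 CPM in BCP+MSC, where replicate 2 had next to none. The 15 muscle progenitor genes had a median of -0.77 and 0 called. Adipocyte genes were near their lowest in BCP replicate 4, with 337, 225, 170.1 and 2.83 CPM of Adipoq, the adipocyte hormone, in BCP and 62.5, 160.4, 61.1 and 686 CPM in BCP+MSC. Their median was 0.30 and that of 19 skin and hair genes 0.06, with 0 called in each. With the muscle mean as a term in the model, 630 genes were higher and 676 lower.

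**Figure D5:**
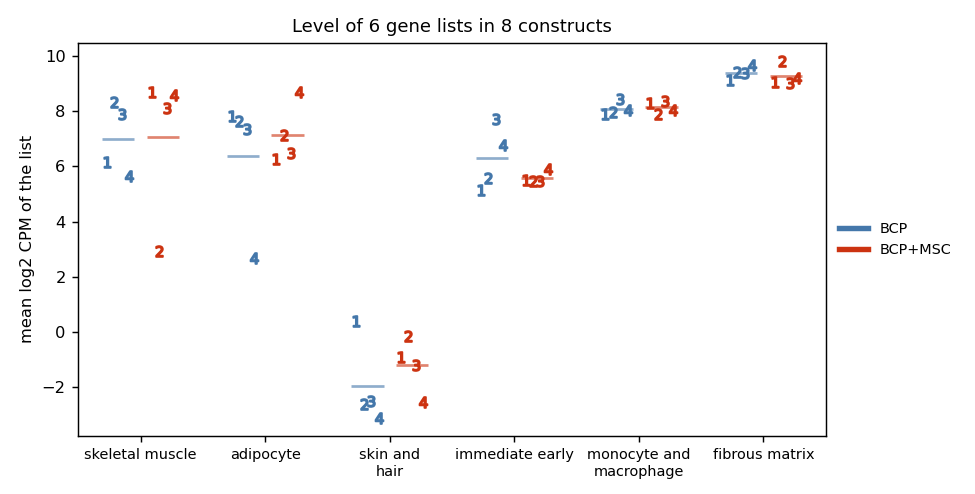
Mean log2 CPM of 6 gene lists in each construct, with replicate numbers in blue for BCP and red for BCP+MSC and bars for group means. BCP+MSC replicate 2 is the lowest for skeletal muscle at 2.94, BCP replicate 4 the lowest for adipocyte genes at 2.67, and BCP replicates 3 and 4 are the highest for immediate early genes, while macrophage and fibrous matrix lists vary little.

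Of the lists of metabolism and growth, 1 gene was called. All 21 cell cycle genes had a log2 fold change above 0, with a median of 0.30 and 0 called, and 37 of 38 oxidative phosphorylation genes did, with a median of 0.56 and 0 called. BCP+MSC replicate 2, the construct with the least muscle RNA, also had the lowest oxidative phosphorylation mean, 5.80. With the muscle mean as a term in the model the median of the oxidative phosphorylation list was 0.48, and that of the skeletal muscle list -0.41. Over all genes tested, 54.8% had a log2 fold change above 0. Of 21 glycolysis and hypoxia genes 1 rose, Ankrd37, a target of the hypoxia factor Hif1a, at 2.92, 11.2, 11.0 and 7.55 CPM in BCP and 21.5, 11.5, 48.3 and 12.0 CPM in BCP+MSC. Ankrd37 was above every BCP value in every BCP+MSC construct, if barely in replicate 2 (log2 fold change 1.505, SE 0.56, unadjusted p = 0.0134). Without BCP+MSC replicate 3 the log2 fold change of Ankrd37 was 0.87 and not called.

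Trib3, a pseudokinase induced by the ATF4 pathway when amino acids are short, was at 2.86, 7.18, 7.11 and 6.74 CPM in BCP and 19.8, 8.29, 40.5 and 10.3 CPM in BCP+MSC. The groups were apart (log2 fold change 1.72, SE 0.52, unadjusted p = 0.00341, exact permutation p = 0.0286). In a list of 15 genes of that response, written after the values were seen, 2 rose (Trib3 and Chac1) and 0 fell, and 14 of 15 had a log2 fold change above 0, with a median of 0.59. Chac1, which degrades glutathione, was at 3.03, 4.35, 2.49 and 1.76 CPM in BCP and 7.64, 1.85, 7.94 and 7.51 CPM in BCP+MSC, where replicate 2 was low (log2 fold change 1.09, unadjusted p = 0.0474). Its call held in 2 of 8 fits that left out 1 animal. Asns, asparagine synthetase, had a log2 fold change of 0.97 (SE 0.40, unadjusted p = 0.0253), just under the limit.

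Among the other genes with separated groups and the smallest p-values, several that fell were well expressed. Errfi1, a feedback inhibitor of the EGF receptor, was at 89.1, 111, 249 and 472 CPM in BCP and 66.9, 75.5, 75.7 and 84.9 CPM in BCP+MSC (log2 fold change -1.61, SE 0.44, unadjusted p = 0.00134). Its BCP level was highest in replicates 3 and 4, and without them the log2 fold change was -0.42. Qprt, an enzyme of NAD synthesis from tryptophan, was at 14.2, 10.6, 7.27 and 23.0 CPM in BCP and 5.16, 7.07, 3.77 and 2.64 CPM in BCP+MSC (log2 fold change -1.56, SE 0.43, unadjusted p = 0.00144). Every BCP+MSC value was below the lowest BCP value, if narrowly for replicate 2.

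Ngfr, the low-affinity neurotrophin receptor of Schwann cells and of some stromal cells, was at 11.7, 12.5, 3.39 and 6.11 CPM in BCP and 1.58, 2.73, 2.23 and 3.06 CPM in BCP+MSC. It was the 1 gene called among 12 Schwann cell and nerve genes, whose median was -0.13 (log2 fold change of Ngfr -1.80, SE 0.56, unadjusted p = 0.00333). Tnmd, tenomodulin, a membrane protein of tendon and ligament cells, was named after its value was seen, since DESeq2 on the 8 samples gave it an adjusted p-value of 0.00467. Tnmd was at 2.45, 1.21, 2.69 and 10.4 CPM in BCP and 0.273, 0.519, 0.248 and 0.757 CPM in BCP+MSC, with the BCP maximum in replicate 4 (log2 fold change -3.20, SE 0.99, unadjusted p = 0.00379, edgeR). Of 10 tendon genes, a list written after that, Tnmd was the only one called, and the median was -0.32. Igfbp2, a carrier of insulin-like growth factors, was named for the same reason. All its BCP+MSC values were above all BCP values, at 9.28, 7.39, 19.1 and 8.02 CPM against 2.27, 1.94, 5.48 and 2.58 CPM, yet it did not pass in edgeR (log2 fold change 1.82, SE 1.00, unadjusted p = 0.0845). Padi3, a peptidylarginine deiminase of hair follicles, rose from 0.700, 0.439, 1.17 and 0.504 CPM in BCP to 2.10, 1.30, 2.45 and 1.29 CPM in BCP+MSC, with no overlap (log2 fold change 1.32, SE 0.39, unadjusted p = 0.00221).

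The remaining genes of that rank were near the limit of detection. Ifnk, Pcp2, Sftpb and Platr3 had 0 counts in all BCP constructs and no more than 14 in any BCP+MSC construct, which made them at least 5.23-, 5.54-, 4.31- and 7.08-fold higher against a floor of 3 counts over the group. Olfr1318 had 0, 0, 1 and 0 counts in BCP and 2, 18, 3 and 4 in BCP+MSC, a pooled ratio of 24.9 (95% counting interval 4.11 to 1021). Ceacam2 had 0, 0, 3 and 0 counts in BCP and 7, 10, 12 and 10 in BCP+MSC, a ratio of 12.0 (3.82 to 60.7). Clrn1, in the other direction, had 5, 1, 5 and 9 counts in BCP and 0, 0, 0 and 1 in BCP+MSC, a ratio of 21.7 (3.46 to 898). Their separation rested on a handful of counts.

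Of the other genes that the study followed in its cell-bearing constructs, Mmp1b fell and Fgf4 rose. Scrg1, named for stimulating chondrogenesis, had 1, 0, 36 and 0 counts in BCP and 3, 5, 0 and 3 in BCP+MSC, and Nog, an inhibitor of BMP proteins, was at 0.315 to 1.59 CPM and 0.275 to 1.18 CPM (log2 fold change -0.61, SE 0.60). Mmp1b, a matrix metalloproteinase, was at 0.700, 0.219, 0.217 and 1.01 CPM in BCP and 0, 0.0305, 0.0166 and 0.178 CPM in BCP+MSC, with no overlap, and Mmp12 overlaps it on the opposite strand. The fitted log2 fold change of Mmp1b was -3.05 (SE 1.23, unadjusted p = 0.0205, exact permutation p = 0.0286), and the call held in 4 of 8 fits that left out 1 animal. Fgf4, a fibroblast growth factor of the embryo, had 0, 0, 1 and 0 counts in BCP and 0, 5, 0 and 4 in BCP+MSC, a pooled ratio of 8.31 (95% counting interval 1.15 to 364), and its call held in 3 of those 8 fits. Ccr6 had a log2 fold change of -0.50 (SE 0.95), Cd300c 0.51 (SE 0.53), Klrc3 -0.09, Ido1 0.04 (SE 1.63) and Areg -0.38 (SE 1.48). Ido1, which degrades tryptophan, was near 7 CPM in 1 construct of each group and at or below 0.137 CPM in the others.

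The constructs whose MSC had been cocultured with activated regulatory T cells (BCP+MSC+Treg) or exposed to resolvin E1, a lipid that ends inflammation (BCP+MSC+RvE1), offer a second view of these genes. They are set beside BCP+MSC here, and the difference from BCP+MSC was tested in the same edgeR model. That model had no term for sex, and sex was not balanced over these 3 groups. Replicates 1 to 3 of BCP+MSC had 335 to 679 CPM of Xist. In BCP+MSC+Treg only replicate 1 was high, at 274 CPM, and the others had at most 0.329 CPM. No BCP+MSC+RvE1 construct exceeded 0.481 CPM. The part of sex in the differences from BCP+MSC was not tested. Ibsp was at 0.0971 to 0.904 CPM in BCP+MSC+Treg and 0.476 to 7.55 CPM in BCP+MSC+RvE1, against 0.305 to 15.4 CPM in BCP+MSC. BCP+MSC was higher than BCP+MSC+Treg by a log2 fold change of 3.59 (unadjusted p = 0.00697, adjusted p = 1.00), and differed from BCP+MSC+RvE1 by 0.56 (unadjusted p = 0.600). BCP+MSC replicate 4 held the highest value of all 3 groups. Replicates 1 to 3 of BCP+MSC, at 0.546, 0.305 and 0.497 CPM, lay inside the BCP+MSC+Treg range. The difference from BCP+MSC+Treg without replicate 4 was not tested.

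For Cry1 the range was 15.6 to 22.0 CPM in BCP+MSC+Treg and 6.44 to 15.7 CPM in BCP+MSC+RvE1. BCP+MSC was below BCP+MSC+Treg (log2 fold change -0.82, unadjusted p = 0.00283, adjusted p = 1.00) and not detectably different from BCP+MSC+RvE1 (log2 fold change -0.15, unadjusted p = 0.561). Nr1d1, at 11.3 to 32.1 CPM and 35.5 to 67.9 CPM, had a log2 difference of 0.92 from BCP+MSC+Treg (unadjusted p = 0.0426, adjusted p = 1.00) and -0.07 from BCP+MSC+RvE1 (unadjusted p = 0.867). Per2, at 11.9 to 13.6 CPM and 6.90 to 14.2 CPM, differed by -0.38 and -0.12 (unadjusted p = 0.144 and 0.636). Ngfr was at 1.57 to 3.35 CPM and 1.42 to 4.39 CPM, with log2 differences of -0.10 and -0.06. Over all genes, 783 (2.56%) passed the unadjusted rule between BCP+MSC and BCP+MSC+Treg and 763 (2.5%) between BCP+MSC and BCP+MSC+RvE1.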

How the data were processed

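RNA was sequenced from whole constructs of 24 mice, and 8 of these samples are compared here. According to the methods and the processing notes of the submitters, reads were aligned to the mouse genome with HISAT2 2.0.5 and assigned to GENCODE M13 genes with featureCounts 1.5.2, without a strand option and leaving out reads with several alignments. DESeq2 1.42.0, Picard and STAR are also named there. The deposited values are raw counts per gene, and all 24 sample columns of the table were used. Columns of BCP+MSC, BCP, BCP+MSC+Treg and BCP+MSC+RvE1 were matched to samples by title. Some columns of the toxin-treated groups were matched to their group only, and those samples entered the fit to share its estimate of spread. Genes that the study names for toxin-treated groups alone are not reported here.

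Genes with at least 10 counts in total were kept, counts were scaled by TMM, and BCP+MSC was compared with BCP by edgeR 4.0.16 (quasi-likelihood test, model over 6 groups, R 4.3.3) with Benjamini-Hochberg adjustment. Exact permutation tests on log2 CPM with a prior count of 2 were two-sided. A call needed an unadjusted p-value under 0.05 and an absolute log2 fold change over 1. Alternatives were RLE scaling, other filters, terms for replicate number, sex and muscle, edgeR on 8 samples, DESeq2 1.42.0, and leaving out animals. The scripts were tested on simulated data.

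The genes named are those the study discusses for these groups in its sequencing or measured as proteins, called members of the gene lists with first members as reference, the 10 genes in each direction with the smallest p-values among calls without overlap (predicted genes and pseudogenes left out), and the 5 most abundant protein-coding nuclear genes of each group. Others are marked as chosen after their values were seen. The comparison and all lists were chosen with earlier results of these data known. Symbols came from a table that paired 50462 of 51138 gene IDs, and Ctgf was matched as Ccn2. Each sample is 1 mouse, and p-values measure the spread between mice.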

Additional observations from a re-analysis of the deposited data

Results flagged for a closer look

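In each group of 4 constructs, the gap between the highest or lowest value and its nearest neighbour was set against the range of the group, and a share over Dixon's critical value for 4 samples marked a value. Of 280 groups tested, from 111 genes and 36 lists, 27 were marked. By chance about 1 in 20 groups would be, and the genes of a list are not independent.

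Among bone and cartilage genes, BCP+MSC replicate 4 stood apart with 15.4 CPM of Ibsp, 0.846 CPM of Bglap2 and a low 3586 CPM of Spp1, and BCP+MSC replicate 1 with 0.573 CPM of Ucma. Among stromal and signalling genes, BCP replicate 4 was high for Cd44 at 630.2 CPM and low for Nog at 0.315 CPM. Of the clock genes, Dbp was low in BCP replicate 4 (2.33 CPM) and in BCP+MSC replicate 4 (4.84 CPM), and Per1 was high in BCP+MSC replicate 3 (87.8 CPM).

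BCP+MSC replicate 2 had 91.5 CPM of Acta1, the lowest of its group, and list means of 2.94 for skeletal muscle, -2.16 for muscle progenitor genes, 1.22 for T cell genes and 5.80 for oxidative phosphorylation. In BCP replicate 4, Adipoq was at 2.83 CPM and the adipocyte list at 2.67. The endothelium list was lowest in BCP+MSC replicate 1 at 4.92, the immediate early list highest in BCP+MSC replicate 4 at 5.90, and the sex-linked list lowest in BCP replicate 1 at -1.37.

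Of the remaining genes, in BCP+MSC replicate 2 Ccl5 was low (5.56 CPM) and Cxcl10 high (14.6 CPM). Ccl4 was high in BCP replicate 3 (42.5 CPM), as was Igkv4-54 (2.45 CPM, with 0 in the other 7 constructs). Trib3 was low in BCP replicate 1 (2.86 CPM) and Chac1 in BCP+MSC replicate 2 (1.85 CPM). Olfr1318 was highest in BCP+MSC replicate 2 (0.275 CPM), and Ighv1-42 was detected in BCP+MSC replicate 4 alone of its group (0.104 CPM).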

How the results depend on the processing

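The count of 762 higher and 558 lower genes was 295 and 253 with edgeR's filterByExpr filter, which kept 21414 genes, and 379 and 327 with edgeR on the 8 samples. DESeq2 gave 473 higher genes on the 8 samples. It passed 17 genes by adjusted p-value there and 6 on all samples, against 0 in edgeR. With single animals left out there were 521 to 1138 higher and 383 to 669 lower genes, and 0 passed the adjusted threshold. Higher genes were 57.7% of the calls, 50.3% with the sex term (516 and 509), 48.2% with the muscle term (630 and 676) and 43.3% among genes of at least 1 CPM. Numbers of replicates do not pair these mice: same-numbered samples correlated at -0.278, -0.521, 0.532 and -0.270. With the replicate block 563 genes were higher and 354 lower.

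The direction turned, or the value went to 0, without BCP+MSC replicate 1 for Col10a1 (-0.39) and Ucma (0), without BCP+MSC replicate 4 for Bglap2 (-2.26) and without BCP replicate 3 for Igkv4-54 (0). Without BCP replicates 3 and 4, Thbs1 was at 0.34, Fosb 1.10, Nr4a1 0.37, Btg2 0.34, Il6 1.28, Cxcl1 0.52, Ptgs2 0.0917 and Igkv4-54 0. With single animals left out, Bglap2 ran from -2.26 to 6.62, Col10a1 from -0.39 to 3.16, Ucma from 0 to 6.35 and Igkv4-54 from -8.60 to 0. The cause was not tested. Over all alternatives, the 48 called genes of the text kept their call in 699 of 845 values, lost it with the same direction in 134 and turned in 12. The 63 uncalled genes gained a call in 36 of 1132 values and changed sign without one in 91. Of the list medians 638 moved by less than the spread between constructs and 10 by more.  Depth limits genes under about 0.2 CPM, which the 2 shallow BCP libraries cannot show.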
